A study of Mus musculus with 30 samples.

Results

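The 9 genes described here encode the enzymes that carry long-chain fatty acids into mitochondria and oxidise them (Cpt1a, Cpt2, Acadvl, Acadl, Acadm, Hadha and Hadhb) and 2 kinases that switch off the pyruvate dehydrogenase complex (Pdk2 and Pdk4). They were listed by name, with earlier results of these data known, and all 9 were found among the 54232 gene IDs of each count table. RNA was sequenced from pancreatic islets, the endocrine clusters that hold the insulin-secreting beta cells, of male wild-type C57BL/6N mice in 30 libraries. Mice had been given vehicle (5 libraries) or 1 mM cadmium chloride (4 libraries) for 6 weeks, or vehicle (6 libraries) or 1 mM cadmium chloride (5 libraries) for 18 weeks. Islets already isolated had been cultured for 96 hours with vehicle (5 libraries) or with 0.5 uM cadmium chloride (5 libraries). How cadmium was dosed, and how old the mice were, is not stated in the labels. The labels do not say whether each library is its own animal or its own culture. The p-values therefore cover the spread between libraries alone, and that spread may be technical.

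Long-chain fatty acids reach the mitochondrial matrix as carnitine esters. CPT1A forms the ester at the outer membrane, where malonyl-CoA inhibits it, and CPT2 turns it back into acyl-CoA at the inner membrane. Acyl-CoA dehydrogenases for very long, long and medium chains (ACADVL, ACADL and ACADM) take the first oxidation step of each round, and the trifunctional protein, built of HADHA and HADHB, takes the following steps for long chains. Pyruvate dehydrogenase kinases phosphorylate the pyruvate dehydrogenase complex and thereby hold back the entry of pyruvate carbon into the citric acid cycle. PDK4 is known as a target of PPAR, FOXO and glucocorticoid signalling in fasting. Beta cells depend on glucose oxidation for insulin secretion, and Cpt1a and Pdk genes are known to follow fuel supply in islets.

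Hadha and Hadhb lie head to head on chromosome 5, at 30118304 to 30155162 on the minus strand and at 30155248 to 30184593 on the plus strand (GENCODE annotation of GRCm38, which is mm10). Only 85 bases separate their annotated starts, and 69.4% of those bases are G or C. They are shown because the counts of the neighbours went apart between settings.

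Between Hadha and Hadhb, chr5:30155163-30155247, plus strand: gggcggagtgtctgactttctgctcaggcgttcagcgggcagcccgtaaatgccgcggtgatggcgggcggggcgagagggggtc

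The coding sequence of Hadhb, 1428 bases, also stands almost unaltered elsewhere in the genome, as the processed pseudogene Gm13910 on chromosome 2 (108948806 to 108950233, plus strand). The alignment was 99.79% identical, and its 3 differences, counted from 1 at the first base of the Hadhb start codon, were G201A, A393G and G743A. A second processed pseudogene, Gm9108 on chromosome 15 (103586944 to 103588368, minus strand), was 97.6% identical over 1426 bases. The following 60 bases of exon 7 of Hadhb and the matching stretch of Gm13910 are shown because they bear on which locus a read can be given to, and the capital marks the single difference (A393G).

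Hadhb, chr5:30172631-30172690, plus strand: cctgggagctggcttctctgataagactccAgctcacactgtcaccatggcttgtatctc

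Gm13910: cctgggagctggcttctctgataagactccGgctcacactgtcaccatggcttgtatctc

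Promoter windows of RefSeq (build GRCm38.p6), 250 bases before to 50 after a start, matched all 9 genes in 10 windows. The nuclear receptor core AGGTCA, searched on both strands, stood in 3 of these 10 windows and in 16.3% of all 32851 windows of the table. The estrogen-related receptor site TNAAGGTCA, which contains AGGTCA, stood in 0 of the 10 and in 1.28% of all. The 3 stretches with the core are given with it in capitals (it reads TGACCT where it lies on the other strand), as letters only.

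Cpt1a, chr19:3323185-3323234, plus strand: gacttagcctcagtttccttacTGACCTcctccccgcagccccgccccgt

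Acadvl, chr11:70015488-70015537, minus strand: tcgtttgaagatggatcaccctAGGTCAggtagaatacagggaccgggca

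Acadm, chr3:153944844-153944893, minus strand: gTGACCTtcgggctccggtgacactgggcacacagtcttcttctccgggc

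The windows of the kinases Pdk2 and Pdk4 held neither motif. The 100 bases before each RefSeq start are shown so that the kinases can be set beside each other.

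Pdk2, chr11:95041372-95041471, minus strand: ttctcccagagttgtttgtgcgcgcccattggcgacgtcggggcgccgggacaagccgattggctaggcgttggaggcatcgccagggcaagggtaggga

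Pdk4, chr6:5496279-5496378, minus strand: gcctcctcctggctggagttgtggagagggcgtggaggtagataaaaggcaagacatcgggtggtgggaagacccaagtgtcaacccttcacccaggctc

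The 3 settings differed in depth and makeup. Total counts were 49564350 to 58366797 at 6 weeks, 24197072 to 26549350 in culture and 9092759 to 51852364 at 18 weeks, where 3 libraries (vehicle 4, vehicle 6 and cadmium 5) lay under 0.5 of the median of that setting. All 10 beta cell markers were detected in every group and in vehicle held 22.6% to 24.6% of counts at 6 weeks, 13.5% to 19.0% at 18 weeks and 15.7% to 16.4% in culture, so that the 6-week range overlapped neither other. Against vehicle at 6 weeks, all 10 macrophage markers were called lower at 18 weeks (median -1.74), beside 35.9% of all genes. So were 24 of 24 acinar (-2.06), 8 of 9 stellate and fibroblast (-2.15) and 8 of 8 ductal markers tested (-1.97), while 3 of 4 erythroid markers were higher. In culture all 8 endothelial (median -3.00) and 24 of 24 acinar markers (-10.8) were called lower, beside 34.8% of all genes. There 5 of 9 stellate and fibroblast and 4 of 5 Schwann cell markers were called higher. Ribosomal RNA held 0.149% to 14.1% of counts at 18 weeks, and at most 0.181% in the other settings. Small structural RNAs held 2.06% to 5.34% of counts at 18 weeks, 0.00379% to 0.00599% at 6 weeks and 0.00955% to 0.0134% in culture. Cytosolic ribosomal protein genes held 0.284% to 0.314% at 6 weeks, 1.34% to 2.19% at 18 weeks and 1.77% to 1.99% in culture. The 24 acinar markers (digestive enzyme genes of the exocrine cells around the islets) held 0.250% to 1.73% in vehicle and 1.55% to 18.6% in cadmium libraries at 18 weeks. At 6 weeks they held 2.61% to 4.80% and 3.55% to 7.85%, and in culture at most 0.0147%, with 2 of 24 at 0 in each group. The 9 genes together held 0.0318% to 0.0517% of counts.

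No member passed the test for cadmium in any of the 3 settings. Levels are given as CPM, counts scaled to the size of the library with all 30 libraries scaled together, and differences as log2 fold changes ± SE from edgeR's quasi-likelihood test on the groups compared. A difference was called at an adjusted p (Benjamini-Hochberg over all genes tested) under 0.05. At 6 weeks, 0 of 9 members were called, as were 0 of 18080 genes (0%), while 923 genes had an unadjusted p under 0.05, none of them a member. With DESeq2, 11 genes and 0 members were called. At 18 weeks, 0 of 9 members were called beside 75 of 20911 genes (0.359%), of which 72 were higher (0.344%) and 3 lower (0.0143%). In culture, 0 of 9 were called beside 1 of 16743 genes (0.00597%). With same-numbered culture libraries taken as blocks, 0 members and 223 genes were called. Groups of CPM did not overlap for 0 members at 6 weeks (1.45% of genes), for 1 at 18 weeks (1.57%) and for 0 in culture (0.759%). In islets, which are bulk samples, fewer cells of a type and less RNA per cell cannot be told apart.

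**Figure D1:**
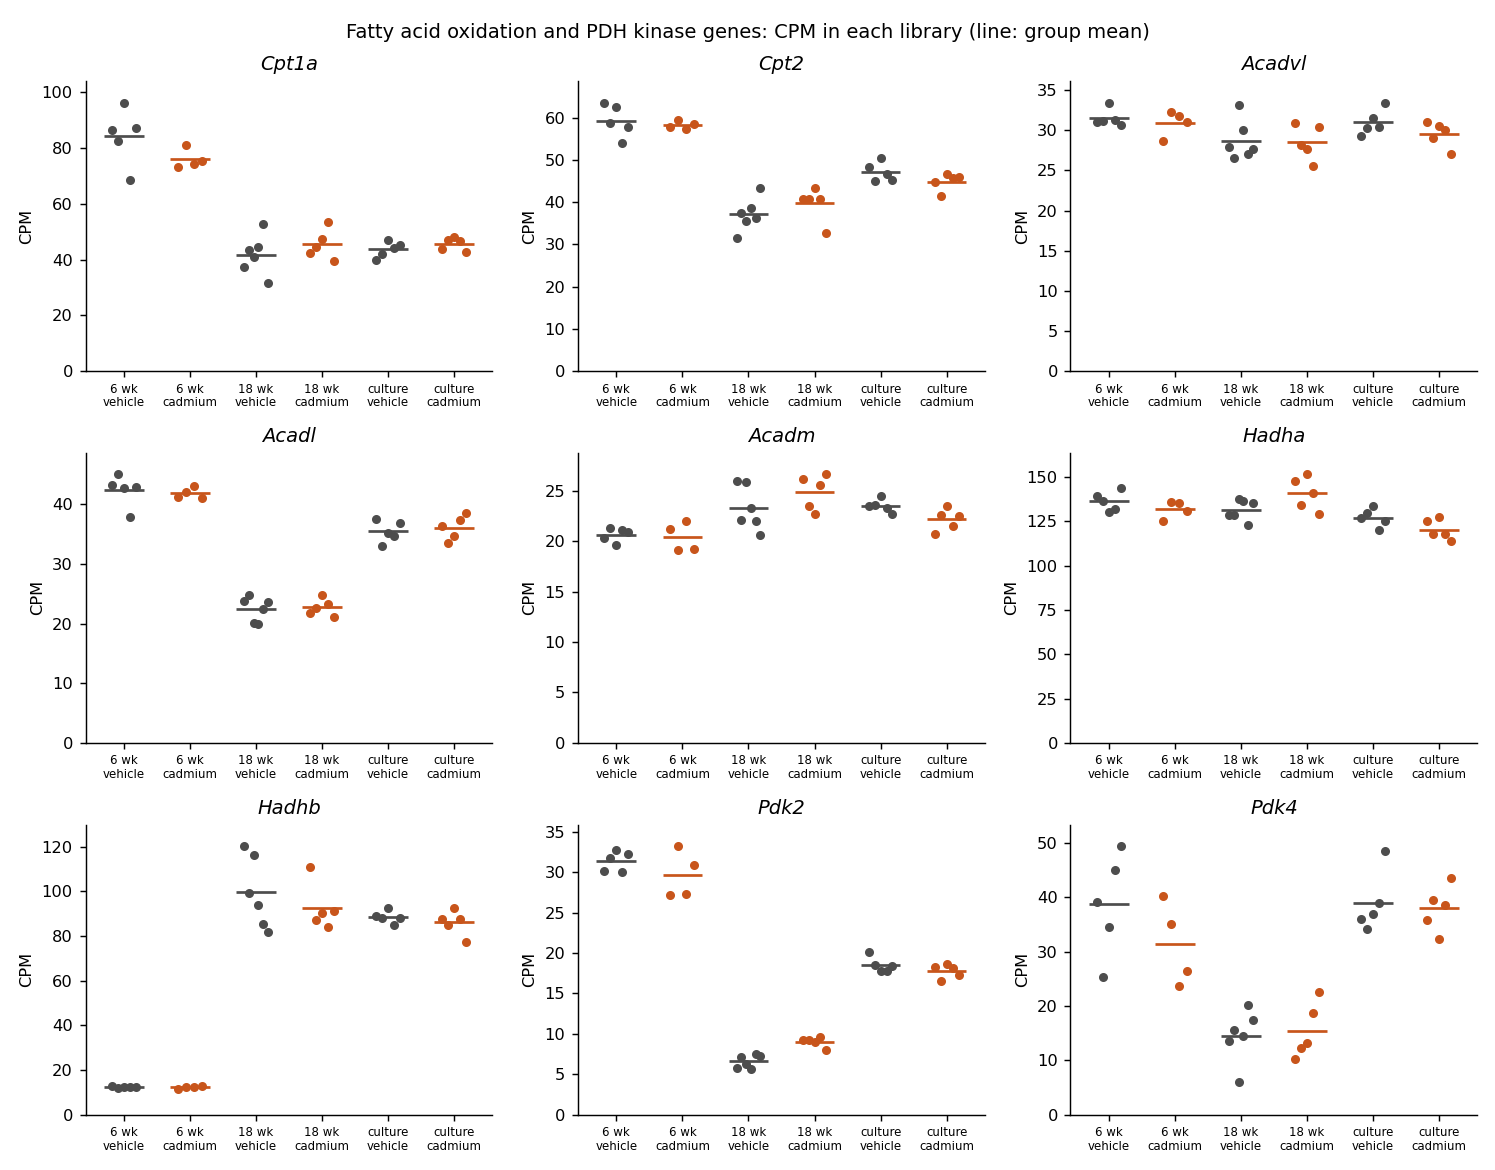
CPM of each gene in each of the 30 libraries (points) with the group mean (line), vehicle in grey and cadmium in orange, on axes that start at 0. Pdk2 in cadmium libraries at 18 weeks (8.03 to 9.61) lies above all vehicle libraries of that time (5.68 to 7.54), and Hadhb stands near 12 only in the 9 libraries of 6 weeks.

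Of the carnitine enzymes, Cpt1a was highest at 6 weeks. Its vehicle libraries of that time held 86.4, 82.5, 96.3, 68.4 and 87.2 CPM and its cadmium libraries 73.2, 81.0, 74.3 and 75.5 CPM. The cadmium values all lay inside the vehicle range, and the difference was -0.15 ± 0.081 (95% interval -0.33 to 0.02, edgeR adjusted p = 0.919). Vehicle at 18 weeks ranged from 31.4 to 52.9 CPM around a median of 42.2 in 6 libraries, and cadmium libraries held 42.5, 44.6, 47.3, 53.4 and 39.6 CPM, with 1 of 5 above the vehicle range. In culture, Cpt1a stood at 39.8 to 47.0 CPM in vehicle and at 42.5 to 48.1 CPM in cadmium libraries, which overlapped. The cadmium differences there were 0.12 ± 0.115 at 18 weeks and 0.07 ± 0.0502 in culture (edgeR adjusted p = 0.58 and 0.91).

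Cpt1a fell by 1.04 ± 0.112 (log2) from 6 to 18 weeks in vehicle libraries and by 0.92 ± 0.0779 from 6 weeks to culture (edgeR adjusted p = 9.24e-07 and 3.33e-07), and neither later group overlapped the first. Culture against 18 weeks in vehicle did not pass (0.02 ± 0.101, edgeR adjusted p = 0.858, 95% interval -0.19 to 0.24). Cpt2, like Cpt1a, was highest at 6 weeks. It ranged from 54.1 to 63.7 CPM in vehicle at 6 weeks, from 31.5 to 43.5 CPM at 18 weeks and from 45.0 to 50.4 CPM in culture, and these 3 ranges did not overlap. It fell by 0.72 ± 0.0806 at 18 weeks and by 0.31 ± 0.0494 in culture (edgeR adjusted p = 1.42e-06 and 0.000116). Cadmium libraries of Cpt2 lay at 57.5 to 59.6, 32.8 to 43.5 and 41.5 to 46.7 CPM in the 3 settings, each overlapping its vehicle group, with differences of -0.03 ± 0.0476, 0.10 ± 0.0918 and -0.07 ± 0.0415.

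The comparison of vehicle groups called 6 members lower and 1 higher at 18 weeks, where 71.8% of 20551 genes were called (35.9% lower and 35.9% higher). In culture against 6 weeks 4 members were lower and 2 higher, where 67.8% of 17605 genes were called (34.8% lower and 33% higher). With RLE scaling or DESeq2, the split at 18 weeks was 5 lower and 2 higher, since Acadvl lost and Acadm gained a call. Scaled within each comparison, CPM did not overlap between the groups for 6 members at 18 weeks (5 lower and 1 higher), as for 53.6% of genes (26.6% lower and 26.9% higher). In culture it did not overlap for 5 members (3 lower and 2 higher), as for 53.1% of genes (27% lower and 26% higher). Both comparisons use the same 5 vehicle libraries of 6 weeks. Length of treatment, culture, depth and the makeup of the libraries differ together between these groups and cannot be told apart. Makeup here includes beta cell, macrophage, endothelial, acinar and stellate marker levels. Any difference in age, which the labels do not state, cannot be told apart from these either. The members' median difference was -0.72 at 18 weeks, beside 0.00027 over all genes, and -0.074 in culture, beside -0.0043.

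**Figure D2:**
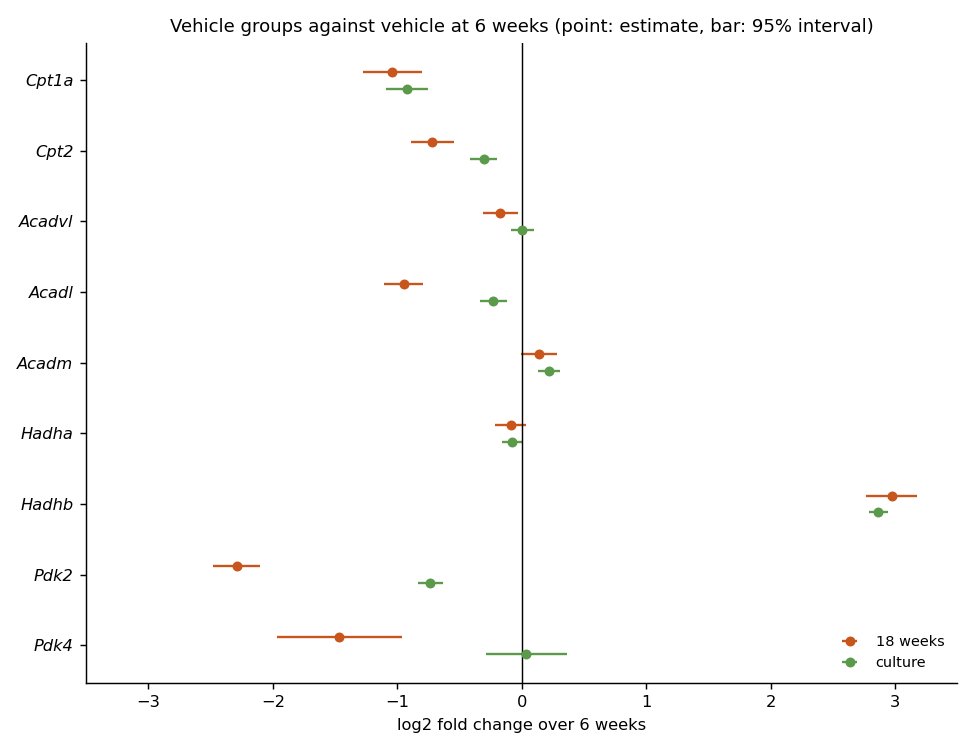
Log2 fold change of each gene in vehicle libraries of 18 weeks (orange) and of culture (green) over vehicle libraries of 6 weeks, points for estimates and bars for 95% intervals. Hadhb stands near 3 in both, while Cpt1a, Cpt2, Acadl and Pdk2 lie below 0 in both.

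The acyl-CoA dehydrogenases went separate ways between settings. Acadl, the long-chain enzyme, held 43.2, 45.0, 42.7, 37.9 and 42.9 CPM in vehicle at 6 weeks, 19.9 to 24.9 CPM (median 23.1) at 18 weeks and 37.6, 33.0, 35.2, 34.8 and 36.9 CPM in culture. All 6 values of 18 weeks lay below those of both other groups, and all 5 of culture lay below those of 6 weeks, though 1 of these 5 overlapped once the 2 groups were scaled on their own. Acadl fell by 0.95 ± 0.0736 at 18 weeks and by 0.23 ± 0.0499 in culture (edgeR adjusted p = 2.99e-08 and 0.00128). Cadmium libraries held 41.1 to 43.1, 21.2 to 24.7 and 33.5 to 38.6 CPM, inside or overlapping vehicle, and the differences were -0.02 ± 0.049, 0.02 ± 0.0771 and 0.03 ± 0.0464.

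Acadvl, the very-long-chain enzyme, had a narrow range of 25.6 to 33.5 CPM over all 30 libraries. Its difference at 18 weeks against 6 weeks in vehicle, -0.17 ± 0.0653, passed the test (edgeR adjusted p = 0.0268), but the call was lost with RLE scaling (-0.11, adjusted p = 0.119), with DESeq2 and without any 1 of 6 libraries (vehicle 1 or 3 of 6 weeks, vehicle 1, 2, 5 or 6 of 18 weeks). Acadm, the medium-chain enzyme, stood at 19.7 to 21.4 CPM in vehicle at 6 weeks, 20.6 to 26.0 CPM at 18 weeks and 22.8 to 24.5 CPM in culture. Its culture range lay above that of 6 weeks, a difference of 0.22 ± 0.0407 that passed the test (edgeR adjusted p = 0.000394). At 18 weeks the difference was 0.14 ± 0.0674 (edgeR adjusted p = 0.073), and it was called with RLE scaling (0.21, adjusted p = 0.0101), with DESeq2 and without vehicle library 2, 3, 5 or 6 of 18 weeks. Cadmium differences of Acadvl were -0.03 ± 0.0448, -0.0026 ± 0.0767 and -0.07 ± 0.0492 in the order 6 weeks, 18 weeks and culture, and those of Acadm were -0.02 ± 0.0575, 0.10 ± 0.0755 and -0.08 ± 0.0458. Acadvl shares 256 bases with Dvl2 on the opposite strand, and no source states the strand setting of the counting.

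The subunits of the trifunctional protein were counted at unlike levels. Hadha, the alpha subunit, held between 114 and 152 CPM in all 30 libraries, and its vehicle groups did not pass the test at 18 weeks (-0.09 ± 0.058, edgeR adjusted p = 0.177) or in culture (-0.07 ± 0.0395, edgeR adjusted p = 0.112) against 6 weeks. The culture difference was called without a count filter (-0.12, adjusted p = 0.0321) and without vehicle library 3 of culture (-0.10, adjusted p = 0.0496). Its cadmium differences were -0.05 ± 0.0433 at 6 weeks, 0.10 ± 0.0653 at 18 weeks and -0.07 ± 0.0395 in culture. Of the 5 cadmium libraries of 18 weeks, 3 lay above the vehicle range of 122.7 to 137 CPM.

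Hadhb, the beta subunit, held 12.7, 12.1, 12.3, 12.5 and 12.3 CPM in vehicle and 11.4, 12.3, 12.5 and 12.6 CPM in cadmium libraries at 6 weeks. It held 81.8 to 120.3 CPM (median 96.6) in vehicle at 18 weeks, and 110.8, 87.2, 90.4, 83.9 and 91.3 CPM with cadmium. Culture libraries held 89.2, 88.0, 92.4, 85.1 and 88.2 CPM with vehicle and 87.8, 85.0, 92.7, 87.7 and 77.1 CPM with cadmium. The 9 libraries of 6 weeks stood far below the other 21, which overlapped each other. Hadhb was higher by 2.97 ± 0.0973 at 18 weeks and by 2.87 ± 0.0347 in culture (edgeR adjusted p = 2.68e-12 and 5.13e-16). Divided by the length of each gene's exons, the ratio of Hadhb to Hadha was 0.113 to 0.128 in the 9 libraries of 6 weeks and 0.786 to 1.24 in the other 21.

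The near copies may bear on this value, since the treatment of multi-mapping reads is not stated in the sources available. Gm13910 itself received 20 to 32 reads a library at 6 weeks, 8 to 52 at 18 weeks and 4 to 16 in culture, and Gm9108 at most 28. Of 17438 genes tested in both comparisons, 238 (1.36%) were at least 2.5 (log2) higher than at 6 weeks in both, as Hadhb was, a threshold chosen after its values were seen. Among the 80 ribosomal protein genes tested, 46 (57.5%) were. Gapdh (4.33 and 5.98), Ppia (3.86 and 4.74) and Rpl21 (6.73 and 6.77) were also among the 238. These housekeeping genes, known for many processed pseudogenes, were picked as examples. How many of the 238, or of all genes, have such copies was not counted. What part multi-mapping reads have in the Hadhb difference was not tested. Within settings, cadmium differences of Hadhb were -0.03 ± 0.0542, -0.10 ± 0.105 and -0.04 ± 0.044.

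Pdk2, a kinase of broad tissue range, gave the only cadmium difference among the 9 that stood apart from the spread of the libraries. At 18 weeks its 6 vehicle libraries held 5.70, 7.16, 6.24, 5.68, 7.54 and 7.21 CPM and its 5 cadmium libraries 9.26, 9.22, 9.04, 9.61 and 8.03 CPM. All 5 cadmium libraries lay above all 6 vehicle libraries, as was so for 0.966% of the 20911 genes tested (1.57% in either direction). These values rest on 59 to 496 reads of Pdk2 a library. The difference was 0.46 ± 0.107 (95% interval 0.23 to 0.69, unadjusted p = 0.000739) and did not pass over all genes (edgeR adjusted p = 0.0831). It was called by DESeq2 (0.46, adjusted p = 0.00416), which called 751 genes, beside 75 in the main test. The fit of all 30 libraries also called it (0.46, adjusted p = 0.000227), among 2496 genes. So did the main test without cadmium library 5 (0.50, adjusted p = 0.0481). Across the other 10 libraries left out in turn it stayed uncalled. With limma, or without the low-depth libraries, 0 genes were called.

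In the other settings the Pdk2 groups overlapped. It held 30.1, 31.8, 32.8, 30.1 and 32.3 CPM in vehicle and 27.1, 33.2, 27.3 and 30.9 CPM in cadmium libraries at 6 weeks, which overlapped (-0.09 ± 0.061). In culture it held 20.1, 18.6, 17.8, 17.8 and 18.4 CPM with vehicle and 18.2, 16.5, 18.6, 18.1 and 17.2 CPM with cadmium, which also overlapped (-0.06 ± 0.0517). The difference between the 18-week and 6-week effects was itself tested in 1 fit of all libraries, where 382 of 22721 genes (1.68%) were called. Pdk2 was the 1 member called (0.54 ± 0.103, edgeR adjusted p = 0.0305). The fit took 1 measure of spread per gene over all libraries, though depth and spread differ between settings. Its SE of 0.103 lies below the 0.107 of the 18-week difference alone, so the call may look firmer than it is. That call was lost, at adjusted p from 0.0504 to 0.0837, without any 1 of 8 libraries (vehicle 1, 2 or 3 or cadmium 1 or 3 of 6 weeks, vehicle 6 or cadmium 3 or 4 of 18 weeks). The effect in culture minus that at 18 weeks was -0.52 ± 0.102 (edgeR adjusted p = 0.066), with 4 genes (0.0176%) and 0 members called. That difference was called by DESeq2, which called 174 genes in that contrast, and without vehicle library 2 or 5 or cadmium library 2 or 5 of 18 weeks. Culture against 6 weeks gave 0.02 ± 0.102 for Pdk2, and 0 of 22721 genes (0%) were called in that contrast by edgeR, with 3 by DESeq2 and 760 at an unadjusted p under 0.05. The other 8 members ranged from -0.08 (Hadhb) to 0.38 (Pdk4) in 18 minus 6 weeks, from -0.07 (Acadm) to 0.27 (Pdk4) in culture minus 6 weeks and from -0.18 (Cpt2, Acadm and Hadha) to 0.07 (Hadhb) in culture minus 18 weeks.

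Markers of several other cell types moved with the same groups at 18 weeks. The share of the 24 acinar markers was 0.25% to 1.73% in vehicle and 1.55% to 18.6% in cadmium libraries, with none of the 24 at 0. The 9 ductal markers held 0.0159% to 0.0224% in vehicle and 0.0248% to 0.0529% in cadmium libraries, which did not overlap, and of the 8 tested all lay on the higher side (median 1.65) and 1 was called. Reg family genes held 0.00212% to 0.0442% in vehicle and 0.0129% to 0.170% with cadmium (6 of 6 on the higher side, 0 called). Stellate and fibroblast markers (8 of 9) and lymphocyte markers (7 of 7 tested) also lay mostly on the higher side, with 0 called and shares that overlapped. What part the acinar, ductal, Reg, stellate and lymphocyte transcripts have in the Pdk2 value was not tested. Acinar shares overlapped between the groups only at cadmium library 2 (1.55%) and vehicle library 2 (1.73%), which held 9.22 and 7.16 CPM of Pdk2. A single pair cannot tell the acinar share from treatment. With the log2 acinar share as a covariate, added after seeing the data, the Pdk2 difference was 0.35 ± 0.190 (edgeR adjusted p = 0.99), with 0 members called. The share itself differed with treatment, so that fit cannot tell an acinar part from a cadmium effect. Acinar and Reg family genes left out before scaling gave 0.46 ± 0.106 (edgeR adjusted p = 0.0906). An antisense gene, Gm11513, overlaps Pdk2 and held 3 to 50 reads a library at 18 weeks, and without a stated strand setting reads from the pair cannot be told apart.

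**Figure D3:**
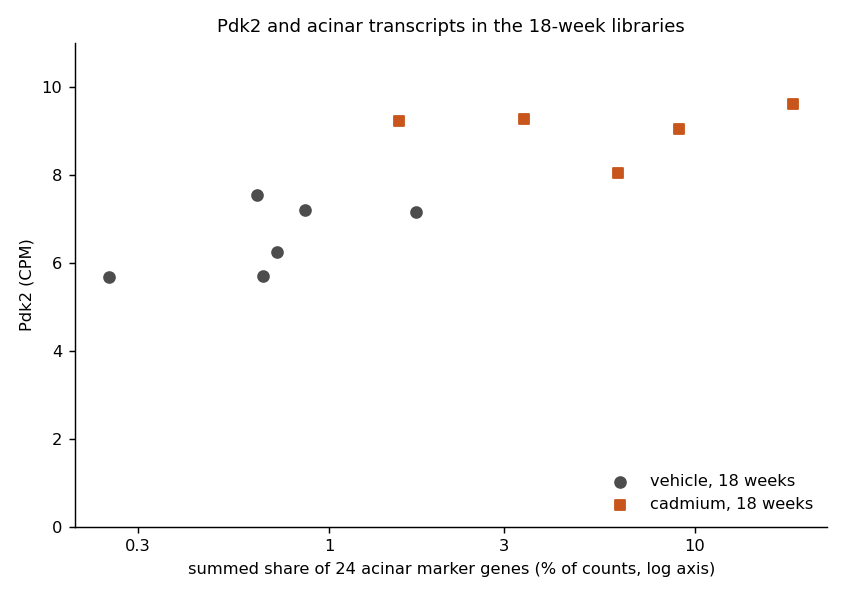
Pdk2 (CPM) against the summed share of counts of 24 acinar marker genes (log axis) in the 6 vehicle (circles) and 5 cadmium (squares) libraries of 18 weeks. Cadmium libraries lie at 8.03 to 9.61 CPM with acinar shares of 1.55% to 18.6%. Vehicle libraries lie at 5.68 to 7.54 CPM with shares of 0.25% to 1.73%, so share and treatment go together.

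Pdk4 was the member with the widest spread between libraries of 1 group. In vehicle at 6 weeks it held 39.2, 25.4, 34.6, 45.0 and 49.4 CPM, and with cadmium 40.3, 35.1, 23.7 and 26.4 CPM. One of 4 cadmium libraries lay below the vehicle range and the rest within it, with a difference of -0.31 ± 0.198 (95% interval -0.75 to 0.13, edgeR adjusted p = 0.919). At 18 weeks vehicle libraries ranged from 6.07 to 20.1 CPM (median 15.01), and cadmium libraries held 10.2, 12.2, 13.2, 18.6 and 22.5 CPM. These groups overlapped, and the difference was 0.08 ± 0.263 (95% interval -0.48 to 0.65). Culture libraries held 35.9, 34.2, 37.0, 38.9 and 48.6 CPM with vehicle and 35.9, 39.5, 32.3, 38.5 and 43.5 CPM with cadmium, a difference of -0.03 ± 0.0891.

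**Figure D4:**
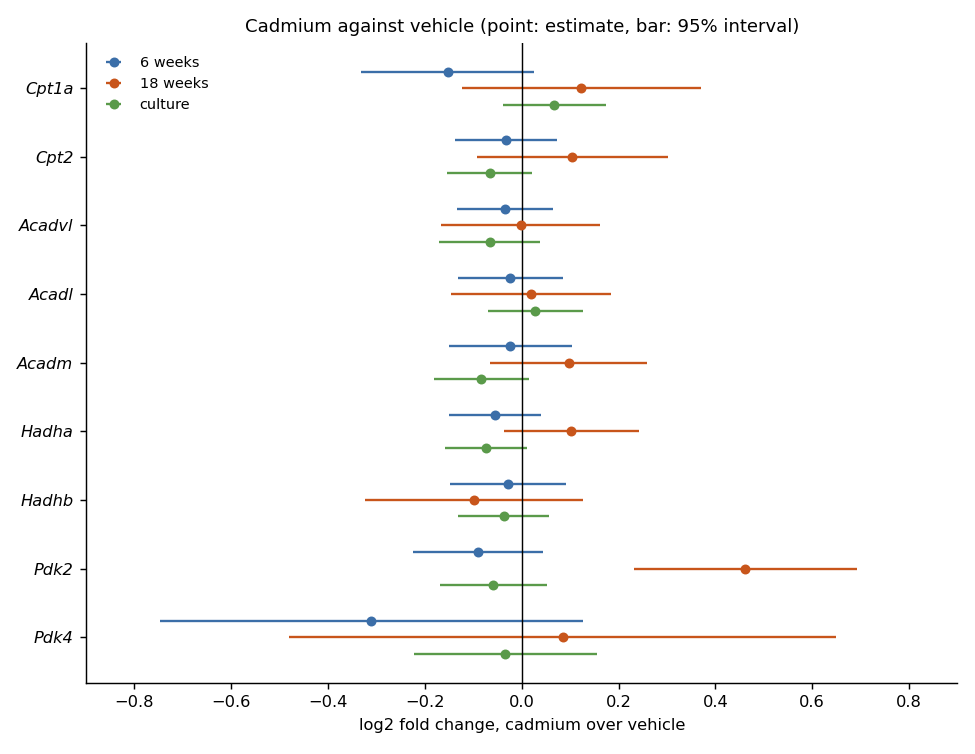
Log2 fold change of cadmium over vehicle for each gene at 6 weeks (blue), 18 weeks (orange) and in culture (green), points for estimates and bars for 95% intervals. The interval of Pdk2 at 18 weeks (0.23 to 0.69) is the 1 that leaves out 0, and the intervals of Pdk4 in vivo are the widest.

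From 6 to 18 weeks in vehicle the kinases had the deepest falls of the 9. Pdk2 fell by 2.29 ± 0.0886 from 6 to 18 weeks (edgeR adjusted p = 1.77e-11) and by 0.73 ± 0.0463 from 6 weeks to culture (1.83e-08), and its ranges in the 3 vehicle groups did not overlap. Pdk4 fell by 1.46 ± 0.235 from 6 to 18 weeks (edgeR adjusted p = 5.16e-05), with all 6 libraries of 18 weeks below all 5 of 6 weeks, and in culture it stood at 0.04 ± 0.15 against 6 weeks (edgeR adjusted p = 0.844). Vehicle culture against vehicle 18 weeks, where 67.2% of 18449 genes were called (30.6% higher), gave 4 members higher: Pdk2 (1.46 ± 0.0898), Pdk4 (1.40 ± 0.211), Acadl (0.62 ± 0.0706) and Cpt2 (0.32 ± 0.0732). Hadhb stood at -0.20 ± 0.0906 in that comparison (edgeR adjusted p = 0.0583).

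Within the kinase family the shares per length shifted between settings. Pdk2 made up 31.5% ± 3.31 (SD, n = 5) of the summed CPM per kilobase of Pdk1 to Pdk4 in vehicle at 6 weeks, 10.8% ± 0.865 (SD, n = 6) at 18 weeks and 19.5% ± 2.56 (SD, n = 5) in culture. With cadmium at 18 weeks its share was 14.6% ± 1.75 (SD, n = 5), from 11.7% to 16.3% against 9.90% to 11.8% in vehicle, so that the lowest cadmium library overlapped vehicle. Pdk4 made up 34.4% ± 5.57 at 6 weeks, 21.5% ± 6.67 at 18 weeks and 36.6% ± 2.59 in culture (SD, n = 5, 6 and 5). Pdk1 and Pdk3 held 16.4% and 17.7% at 6 weeks and 32.5% and 35.1% at 18 weeks. These shares use the union of exons. Divided by the longest transcript, Pdk1 (11.7 CPM per kilobase) stood above Pdk4 (11.2) in vehicle culture, which turns their order there. The cadmium differences of Pdk1 and Pdk3 at 18 weeks were 0.06 ± 0.091 and -0.16 ± 0.125 (edgeR adjusted p = 0.762 and 0.486).

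**Figure D5:**
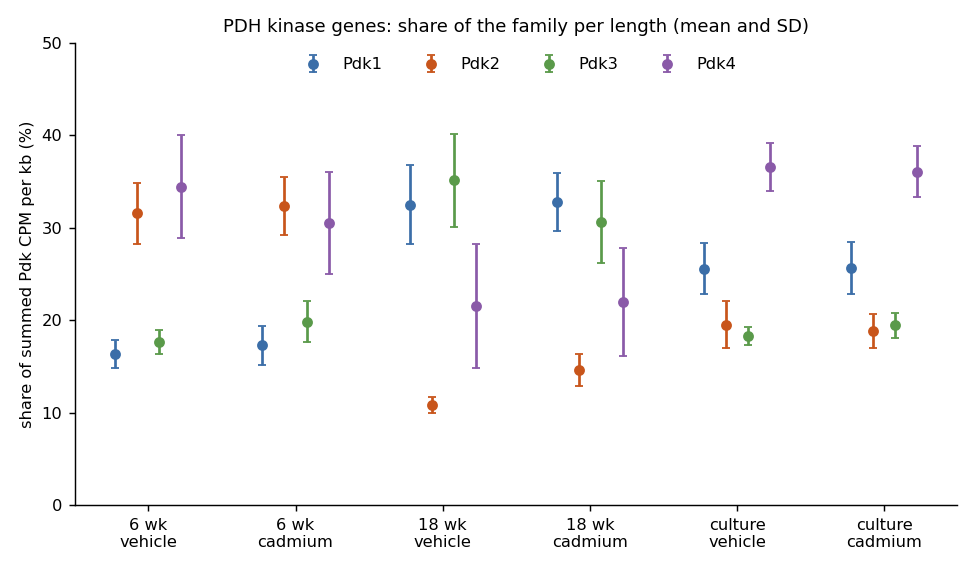
Share of each Pdk gene in the summed CPM per kilobase of the family (%), mean (points) and SD (bars) of each of the 6 groups. Pdk2 and Pdk4 lead at 6 weeks (31.5% and 34.4% in vehicle), Pdk1 and Pdk3 lead at 18 weeks, and Pdk4 leads in culture by this length, the union of exons.

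As a list, the 9 genes leaned to the lower side at 6 weeks (9 of 9, median -0.034, beside 49.3% of all genes on the higher side and a median of -0.0019 over them). They leaned to the higher side at 18 weeks (7 of 9, median 0.097, beside 50% and 0.00029) and to the lower side in culture (7 of 9, median -0.059, beside 48.8% higher and -0.0021). Acadm, Hadhb and Pdk4 at 6 weeks, Acadvl, Acadl and Pdk4 at 18 weeks and Hadhb and Pdk4 in culture changed sign under 1 or more alternatives.

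Per kilobase of exon, which allows levels to be compared between genes, Cpt2 was highest in vehicle at 6 weeks (24.8 ± 1.61 CPM per kilobase), followed by Acadl (21.1 ± 1.32), Hadha (15.6 ± 0.632), Acadvl (11.7 ± 0.408), Pdk4 (11.03 ± 2.65), Cpt1a (11.01 ± 1.33), Pdk2 (9.93 ± 0.395), Acadm (5.29 ± 0.17) and Hadhb (1.88 ± 0.0364), each SD over n = 5. Acadvl, Cpt1a and Pdk4 did not differ beyond their spread. In vehicle at 18 weeks Cpt2 (15.6 ± 1.65), Hadha (15.1 ± 0.661) and Hadhb (15.1 ± 2.41) stood highest, within each other's spread, and Pdk2 was lowest (2.08 ± 0.259), each SD over n = 6. This order depends on the length used. Divided by the longest transcript in place of the union of exons, Hadha stood highest in vehicle at 6 weeks (33.96 CPM per kilobase), above Cpt2 (25.04), Acadl (22.1) and Cpt1a (19.5). At 18 weeks Hadha then stood at 32.7, Hadhb at 22.7 and Cpt2 at 15.7 CPM per kilobase.

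Other genes of the pathway were taken from 7 lists with 109 genes. At 6 weeks 0 of the 102 tested were called, and in culture 0 of 100. At 18 weeks 0 of 103 were called, though 22 had an unadjusted p under 0.05, as did 3804 of all 20911 genes. Over all pathway genes tested, 44 of 102 lay on the higher side at 6 weeks, 71 of 103 at 18 weeks and 45 of 100 in culture. Of all genes, 49.3%, 50% and 48.8% did. The pyruvate dehydrogenase list had 10 of 13 higher at 6 weeks and 8 of 13 lower at 18 weeks. Of 21 other genes of mitochondrial beta oxidation, 18 lay on the lower side at 6 weeks (median -0.053) and 18 on the higher side at 18 weeks (median 0.13). In culture 12 of 20 lay on the lower side (median -0.0095).

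At 18 weeks the pathway genes of smallest p included the following, none past an adjusted p of 0.05 by edgeR. Acacb, which makes the malonyl-CoA that inhibits CPT1, held 1.06 to 2.85 CPM in vehicle and 3.45 to 9.84 CPM in cadmium libraries, with no overlap (1.27 ± 0.313, adjusted p = 0.0998). The hormone gene Fgf21 stood at 3.13 ± 0.805 (0.111). Its counts were low, at 0.068 to 0.769 CPM in vehicle and 0.0716 to 10.6 CPM in cadmium libraries, which overlapped. Fabp5 and Dbi, which bind fatty acids and acyl-CoA, stood at 0.86 ± 0.22 and 0.41 ± 0.116 (0.106 and 0.13), and the desaturase gene Scd1 at 0.68 ± 0.192 (0.13). The beta oxidation genes Echs1 and Acaa2 stood at 0.27 ± 0.0761 and 0.41 ± 0.129 (0.133 and 0.155), and in each 4 of the 5 cadmium values exceeded the whole vehicle range. Pdha1, the catalytic subunit that the kinases phosphorylate, stood at 0.22 ± 0.0708 (0.162), and Dld at -0.23 ± 0.103 (0.265). Foxo1 (-0.17 ± 0.084), Sgk1 (0.49 ± 0.255) and Pex5 (0.18 ± 0.1) had adjusted p of 0.295 to 0.348. Acacb, Fabp5, Fgf21, Scd1 and Dbi were called by DESeq2, which called 751 genes at 18 weeks. The acinar shares given above moved with these values too, and so did the ductal shares. With the acinar share as a covariate, 0 genes were called, in a fit that cannot tell that share from treatment. Acacb then stood at 0.29 ± 0.439, Fabp5 at 0.50 ± 0.365, Scd1 at 0.097 ± 0.278 and Dbi at 0.17 ± 0.195 (edgeR adjusted p = 0.99 to 0.991). Fgf21 then stood at -2.07 and Sgk1 at -0.33, Echs1 at 0.17, Acaa2 at 0.35 and Pdha1 at 0.18. Acaa2, the thiolase of the last step, was the 1 of 104 pathway genes (0.962%) called in 18 minus 6 weeks (0.60 ± 0.148, edgeR adjusted p = 0.0397). Of all 22721 genes, 1.68% were called there. That contrast was not refitted for Acaa2 under the alternatives.

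At 6 weeks the smallest p among pathway genes belonged to genes with an adjusted p of 0.919 by edgeR. Acaa2 (-0.20 ± 0.0659), Acot2 (-0.29 ± 0.11), the fatty acid transporter Cd36 (-0.72 ± 0.265), Slc27a4 (-0.07 ± 0.0472), the lipid droplet gene Plin4 (-1.28 ± 0.538) and Zbtb16 (-1.13 ± 0.548) were on the lower side. Acox3 and Decr2 of the peroxisome (-0.08 ± 0.0461 and -0.06 ± 0.0356), Rxrb (-0.06 ± 0.0365), Pcx (-0.06 ± 0.0353) and Thrsp (-0.27 ± 0.157) were also lower, and Foxo1 (0.06 ± 0.0364), Mpc1 (0.17 ± 0.119) and the kinase subunit Prkaa2 (0.09 ± 0.0512) were on the higher side. In culture the adjusted p of these genes were 0.888 to 0.91. Scd1 (0.47 ± 0.18), Sgk1 (0.12 ± 0.0613), Cdkn1a (0.10 ± 0.0488), Acot1 (0.34 ± 0.221) and Fabp5 (0.19 ± 0.14) lay on the higher side. Etfb (-0.31 ± 0.173), Etfdh (-0.08 ± 0.0398), Pdp2 (-0.11 ± 0.0525), Pcx (-0.08 ± 0.0495), Fasn (-0.08 ± 0.0466), Slc27a2 (-0.28 ± 0.191), Pex5 (-0.07 ± 0.0441), Scp2 (-0.05 ± 0.0415) and Ppard (-0.06 ± 0.0393) lay on the lower side.

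Between vehicle groups, 65 of 102 pathway genes were called at 18 weeks against 6 weeks, 48 of them lower, and 78 of 101 in culture, 53 of them lower. These are 63.7% and 77.2% of the genes tested, beside 71.8% (35.9% lower) and 67.8% (34.8% lower) of all genes. At 18 weeks PPAR pathway genes were lower in 10 of 16 and higher in 1, with Ppard, a fatty acid receptor, at -2.48 ± 0.0987, Ucp2, an uncoupling protein, at -1.89 ± 0.161 and Rxrb at -0.74 ± 0.0627. Foxo1, the transcription factor known to drive Pdk4, fell by 1.81 ± 0.0678, and its part in the Pdk4 fall was not tested. Higher were Acaca (1.40 ± 0.0551), which makes malonyl-CoA, Scp2 (1.40 ± 0.0736), Fabp3 (2.15 ± 0.217), the pyruvate carrier Mpc1 (1.61 ± 0.121) and Pdhb (0.80 ± 0.0539). Adjusted p of these 9 were at most 4.79e-07 by edgeR. Mitochondrial beta oxidation genes other than the members were lower in 12 of 21 and higher in 1. Genes of the FOXO and glucocorticoid list were lower in 5 of 14 and higher in 1, beside 35.9% lower and 35.9% higher over all genes.

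In culture against 6 weeks Acaca (1.21 ± 0.0328), Scp2 (1.34 ± 0.0416), Mpc1 (2.06 ± 0.0834) and Pdhb (0.71 ± 0.0368) were higher too, as was Fabp5 (3.89 ± 0.15). Etfb, a subunit of the flavoprotein that takes electrons from acyl-CoA dehydrogenases, fell by 3.23 ± 0.0966. Txnip, a glucose-responsive gene, fell by 2.65 ± 0.153, Srebf1 by 0.79 ± 0.0523, Thrsp by 2.95 ± 0.208 and Acacb by 2.67 ± 0.194, and adjusted p of these 10 were at most 7.46e-08 by edgeR. The FOXO and glucocorticoid list, which holds Foxo1, Foxo3 and the receptor gene Nr3c1 beside target genes, was lower in 11 of 14 and higher in 0. Over all genes 34.8% were lower and 33% higher, and Pdk4 itself stood at 0.04 ± 0.15.

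Genes most like each member were found by Pearson's r of log2 CPM over the 30 libraries after the group means were subtracted, among 11195 genes, as a description, since libraries share depth and makeup. Pdk2 was most like Slc25a23 (0.75), Lrrc8d (0.75) and Slc7a8 (0.75), and Pdk4 was like Klf7 (0.75) and Eif1 (0.72). Cpt1a was most like Syt3 (0.76), Sh3bp4 (0.75) and Gramd4 (0.75), and Cpt2 most like Mybbp1a (0.81), Abcf2 (0.81) and Cdc37 (0.78). For the dehydrogenases these were G3bp1, Tmem218 and Ildr1 (0.72, 0.72 and 0.68) for Acadvl, Kctd17, Gstcd and Cd47 (0.70, 0.68 and 0.68) for Acadl, and Bbs4, Dstn and Pgrmc1 (0.83, 0.81 and 0.80) for Acadm. Hadha was most like Lamtor1 (0.77), Wsb2 (0.76) and Lamp1 (0.75), and Hadhb most like Itpa (0.92), Vps41 (0.90) and Vps35 (0.89). No member was among the 3 of another. Among the 36 pairs of members r ran from -0.62 (Acadm and Pdk2) to 0.58 (Acadm and Hadhb), and Hadha with Hadhb had 0.35.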

How the data were processed

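Raw read counts per Ensembl gene, deposited by the authors for each of 30 libraries with no normalization, were analysed. Per the submitters' processing notes, cutadapt 1.13, STAR, HTSeq 0.6.1p1, DESeq2 and build mm10 were used upstream. No source used here states how multi-mapping reads were treated, the strand setting or the annotation release. Of 54232 IDs, 54165 matched a symbol, and 0 pairs of libraries were identical.

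Genes were kept by filterByExpr (at least 10 counts, at least 15 in total) and scaled by TMM, and edgeR 4.0.16 under R 4.3.3 then tested each comparison on its own 2 groups by quasi-likelihood, with Benjamini-Hochberg adjustment over all genes tested and no replicate block. All 9 members passed the filter in every comparison. Differences between cadmium effects were contrasts in 1 fit of all 6 groups. The fit was tested on simulated data. Alternatives were DESeq2 1.42.0, limma 3.58.1 (voom with sample weights), RLE scaling, no count filter, all 30 libraries in the fit, each library left out, the low-depth libraries left out, a replicate block, and acinar and Reg family genes left out before scaling. An acinar covariate was added after seeing the data.

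Near copies were searched with blastn 2.17.0+ (identity of at least 90%, at least 100 bases). Lengths and coordinates come from GENCODE, and promoter windows from RefSeq. Pathway genes were named where they passed the test (at most the 5 of smallest p in each direction) and, for a list with fewer than 2 passing, as its 2 of smallest p. Genes like a member are the 3 of highest r among those with a mean CPM of at least 5 (log2 CPM with a prior count of 2). Some genes that these rules name are not reported here. The members and lists were chosen with earlier results of these data known. Counts limit precision most at 18 weeks, where Pdk2 rests on as few as 59 reads.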

Additional observations from a re-analysis of the deposited data

Results flagged for a closer look

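In 3 of 54 sets of values (9 genes in 6 groups), 1 library stood apart from the rest of its group, by a criterion that chance meets in about 1 set in 20. Cpt2 was at 32.8 CPM in cadmium library 5 of 18 weeks, 1 of the 3 low-depth libraries, against 40.7 to 43.5 CPM in the other 4. Acadvl was at 33.5 CPM in vehicle library 3 of 6 weeks against 30.6 to 31.4 CPM in the others. Hadhb was at 110.8 CPM in cadmium library 1 of 18 weeks against 83.9 to 91.3 CPM in the others. The cadmium effect on Pdk2 differed between 18 and 6 weeks by 0.54 ± 0.103 (log2, edgeR adjusted p = 0.0305), a call that was lost without any 1 of 8 of the 30 libraries. That fit took 1 measure of spread per gene over all settings.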

How the results depend on the processing

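At 18 weeks, depth (9092759 to 51852364 counts) and the share of rRNA (0.149% to 14.1%) varied most widely between libraries. At 18 weeks 0 members were called, and 1 (Pdk2) with DESeq2, with all 30 libraries in the fit and, over libraries left out in turn (0 to 1), without cadmium library 5. The count in 18 minus 6 weeks was 0 to 1 over libraries left out in turn, and in culture minus 18 weeks it was 1 with DESeq2 and 0 to 1 over libraries left out. The count of all genes called at 18 weeks was 75, but 751 with DESeq2, 2496 with all 30 libraries, 140 without a count filter, 40 with acinar and Reg genes left out, 1 with the replicate block, and 0 with limma, without the low-depth libraries or with the acinar covariate, while leaving out 1 library gave 0 to 318. At 6 weeks it was 0, and 11 with DESeq2. In culture it was 1, and 7 without a count filter and 223 with the replicate block. In 18 minus 6 weeks it was 382, and 1360 with DESeq2, 192 without a count filter and 0 to 1694 with 1 library left out.

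Apart from culture set against 18 weeks, no value that changed sign was called by either fit, and the cause was not tested. With the acinar covariate, Acadm and Pdk4 at 6 weeks were 0.0044 and 0.085, and Acadvl, Acadl and Pdk4 at 18 weeks 0.16, -0.13 and -0.32, with Fgf21 at -2.07 and Sgk1 at -0.33. With limma, Acadvl and Pdk4 at 18 weeks were 0.019 and -0.041, and Pdk4 without the low-depth libraries -0.021. In culture against 6 weeks, Acadvl was -0.012 with DESeq2, -0.043 without a count filter, -0.025 with all libraries and -0.0012 with limma, and Pdk4 -0.0094 without a count filter. Set against vehicle of 18 weeks in place of 6 weeks, culture gave 0.022 for Cpt1a, 0.32 for Cpt2, 0.62 for Acadl, -0.024 for Acadm, -0.20 for Hadhb, 1.46 for Pdk2, -0.29 for Acaca, -0.16 for Scp2 and -0.19 for Pdhb.

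Leaving out 1 library at a time gave, at 6 weeks, -0.064 to 0.0071 for Acadm and -0.047 to 0.0011 for Hadhb. At 18 weeks it gave -0.028 to 0.040 for Acadvl, -0.015 to 0.052 for Acadl and -0.091 to 0.21 for Pdk4. In culture it gave -0.066 to 0.0040 for Hadhb and -0.084 to 0.061 for Pdk4, and in culture against 6 weeks -0.027 to 0.033 for Acadvl and -0.073 to 0.15 for Pdk4. For 18 minus 6 weeks it gave -0.015 to 0.060 for Acadvl and -0.015 to 0.066 for Acadl. For culture minus 6 weeks it gave -0.053 to 0.0024 for Hadha, -0.050 to 0.019 for Hadhb and -0.019 to 0.081 for Pdk2. For culture minus 18 weeks it gave -0.12 to 0.025 for Cpt1a, -0.024 to 0.067 for Acadl and -0.24 to 0.088 for Pdk4.

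The labels give groups the same replicate numbers. Same-numbered libraries deviated together by r over 0.1 in 10 of 24 pairs, never in all pairs of a comparison, and in no comparison did every library correlate best with its own number, so the numbers were not taken as pairs. In culture 4 of 5 pairs had such an r. Pairing by number therefore remains possible there, and the unpaired test does not account for it. With the numbers as a replicate block, 0 members were called for cadmium in any setting (Pdk2 at 18 weeks 0.49, adjusted p = 0.171), and genes called in culture numbered 223 in place of 1, with Hadha at -0.07 (adjusted p = 0.416) and Acadm at -0.08 (adjusted p = 0.563). The block left 7 members called at 18 against 6 weeks (2 higher and 5 lower, with Acadm gained and Acadvl lost) and 6 in culture against 6 weeks.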
